A study of Mus musculus with 2 samples.

Results

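Regeneration-associated genes are genes that injured neurons are known to switch on when they attempt to regrow an axon. The set described here holds 7 of the 31053 genes in the count matrices, listed by name: the effectors Ecel1, Sprr1a and Gap43 and the transcription factors Sox11, Klf6, Klf7 and Smad1. The study itself chose Ecel1, Sprr1a and Sox11 for its panel of axon growth genes on these same samples, so their pattern is not independent evidence. The nuclei came from mice carrying 1 copy each of Atf3-CreER and of the Sun1-sfGFP reporter, both sexes older than 7 weeks, all with a closed-skull mild traumatic brain injury (mTBI). Tamoxifen was given at 4 and 5 days post injury (dpi), the ipsilateral cortex was taken at 7 dpi, and nuclei positive for GFP and the DNA dye DRAQ5 were sorted for single nucleus RNA sequencing. CreER is made wherever Atf3 is expressed, so GFP marks any cell type that expressed Atf3 around the time of tamoxifen, and it stays on after Atf3 has gone. There were 2 libraries, each a pool of 4 animals, here named the male and the female library. A label field gives male for both, while the title, the deposited table of nuclei and the methods make the second female. No uninjured library was analysed here, so the values compare labelled neurons with each other and say nothing of levels before injury.

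Peripheral neurons switch on these genes after a cut axon, and most central neurons of the adult do so weakly. Ecel1 is an endopeptidase-like membrane protein induced by nerve damage, Sprr1a a small proline-rich protein found in regrowing axons, and Gap43 a membrane protein of growth cones. Sox11 is a SoxC factor of immature neurons, Klf6 and Klf7 are the Krüppel-like factors that promote axon growth, and Smad1 carries signals from bone morphogenetic protein (BMP) receptors to the nucleus. Atf3 and Jun, which sit upstream in the injury response, are basic leucine zipper factors that bind DNA as pairs.

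The start regions of 3 members are shown as examples of an effector (Sprr1a) and of transcription factors (Sox11 and Klf7) that were called different among neuronal labels. RefSeq start regions (GRCm38.p6, 250 bases before to 50 after the start) were at hand for 6 of the 7 members, all but Gap43. They were searched on both strands for 8 short motifs, namely TGANTCA (the AP-1 site), TGACGTCA (the cyclic AMP response element), TGACNTCA (its relaxed form), TGACG (its core), CACCC (a Krüppel-like factor box), GGGCGG (the GC box), TATAAA (the TATA box) and CATTCC (the Tead site). A TGACGTCA also counts as TGACNTCA and TGACG, and the motifs marked below were chosen after the search. Capitals mark TGANTCA (the AP-1 site) and TATAAA in Sprr1a, and GGGCGG or its reverse complement in Sox11 and Klf7. All 3 lie on the minus strand, at chr3:92485832-92486131, chr12:27342669-27342968 and chr1:64121340-64121639, and are printed 5′ to 3′ in the direction of the gene.
Sprr1a: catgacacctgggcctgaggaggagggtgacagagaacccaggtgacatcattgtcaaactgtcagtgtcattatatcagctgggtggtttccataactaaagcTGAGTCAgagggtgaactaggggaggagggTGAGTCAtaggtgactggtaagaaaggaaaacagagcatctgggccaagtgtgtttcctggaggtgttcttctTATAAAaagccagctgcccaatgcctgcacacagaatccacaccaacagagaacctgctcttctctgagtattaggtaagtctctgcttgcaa
Sox11: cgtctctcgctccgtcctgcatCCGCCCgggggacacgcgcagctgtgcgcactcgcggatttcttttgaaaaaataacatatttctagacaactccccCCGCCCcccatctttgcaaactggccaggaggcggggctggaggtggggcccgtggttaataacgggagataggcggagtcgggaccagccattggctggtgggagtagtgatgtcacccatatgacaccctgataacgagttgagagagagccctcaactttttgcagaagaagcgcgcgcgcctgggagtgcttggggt
Klf7: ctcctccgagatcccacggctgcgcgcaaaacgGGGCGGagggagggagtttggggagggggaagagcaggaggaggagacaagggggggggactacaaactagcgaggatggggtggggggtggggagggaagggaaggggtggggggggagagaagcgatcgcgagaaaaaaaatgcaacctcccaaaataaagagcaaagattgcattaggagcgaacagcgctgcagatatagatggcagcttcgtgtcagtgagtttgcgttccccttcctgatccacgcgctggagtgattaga
Sprr1a held 2 copies of TGAGTCA, at 146 and 116 bases before the start, and a TATAAA 43 bases before it. TGANTCA was present in 7.81% of all 32851 start regions, and 2 or more copies in 0.460%. TATAAA was present in 13.6%. The start regions of Ecel1, Sox11, Klf6, Klf7 and Smad1 held no TGANTCA within these bases. TGACNTCA, present in 8.83% of all start regions, occurred in Sprr1a at 207 bases before the start, in Klf6 at 119 and in Sox11 at 42. GGGCGG, present in 35.7% of all start regions, occurred in Sox11 at 228 and 151 bases before the start, in Klf7 at 217, in Klf6 at 63 and in Smad1 at 33. These matches describe letters only.

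The labels used are those deposited with the nuclei, which the authors had assigned from the same counts: 9 neuronal labels with at least 50 nuclei (2499 nuclei, 1344 male and 1155 female), 395 nuclei labelled Unknown, 4028 Micro-PVM (microglia), 115 Astro and 68 Oligo, out of 8171. A nucleus had a median of 1742 UMIs (unique molecular identifiers, 1 per captured RNA molecule), for male nuclei, and of 3710 for female nuclei, so depth and sex cannot be told apart. A further 81 nuclei of smaller neuronal labels were not used, and the libraries shared 1 barcode. The level of a gene is its CPM in a label, that is, its UMIs after every summed label is scaled to the same total. The markers Gad1 and Gad2 summed to 391-819 CPM in the 3 inhibitory labels and to 0-95.4 CPM in the 6 excitatory ones. Slc17a7, the vesicular glutamate transporter of excitatory neurons, was low in the excitatory labels, at 34.3-92.7 CPM (male) and 13.9-43.1 CPM (female), against 8.11-17.3 and 2.06-5.56 CPM in inhibitory labels and 32.1 and 11.6 CPM in microglia. Free RNA was present in both libraries. The 6 microglial markers, which neurons should lack, summed to 284-773 CPM in male and 639-1695 CPM in female neuronal labels, against 3772 and 4071 CPM in microglia. Barcodes with at most 100 UMIs that were not called as nuclei held all 7 members, for example Sprr1a at 89.0 and 91.3 CPM and Ecel1 at 155 and 186 CPM. If all microglial marker UMIs in neuronal labels were free RNA of the kind in those barcodes, 18.9-51.5% of the UMIs of a male neuronal label and 35.5-94.0% of those of a female label would be too. The upper values are those of L2/3 IT CTX-2 and L6 IT CTX in the female library, and the part of free RNA in the members' levels there was not tested. Some member levels lay below what such shares alone would bring. In female L6 CT the share was 54.4%, but Sprr1a was 6.73 CPM, against 91.3 CPM in those barcodes. In female Unknown nuclei it was 43.3%, but Gap43 was 14.5 CPM, against 322 CPM. The subtraction of free RNA used these shares, so it could remove too much.

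Over all neuronal nuclei together, Ecel1 stood at 271 CPM (male) and 387 CPM (female), the widest ratio between the libraries of the 7 members, and was higher in the female library in 8 of 9 labels. Levels varied between labels by 2.72-fold (highest over lowest mean of 2 libraries) for Ecel1, 2.82-fold for Gap43, 3.58-fold for Smad1, 3.84-fold for Sox11, 6.12-fold for Klf6, 6.38-fold for Klf7 and 18.6-fold for Sprr1a. A test of any difference among the 9 labels (edgeR quasi-likelihood, adjusted p under 0.05 over 8664 genes) called 6 of 7 members, where 36.3% of all genes tested were called. The exception was Ecel1, with an adjusted p of 0.088 in edgeR. With the library as a replicate block, which takes up a shift between libraries in all labels, Ecel1 was called too (edgeR adjusted p = 9.99e-06), as it was with no filter on low counts (edgeR adjusted p = 7.5e-08).

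**Figure D1:**
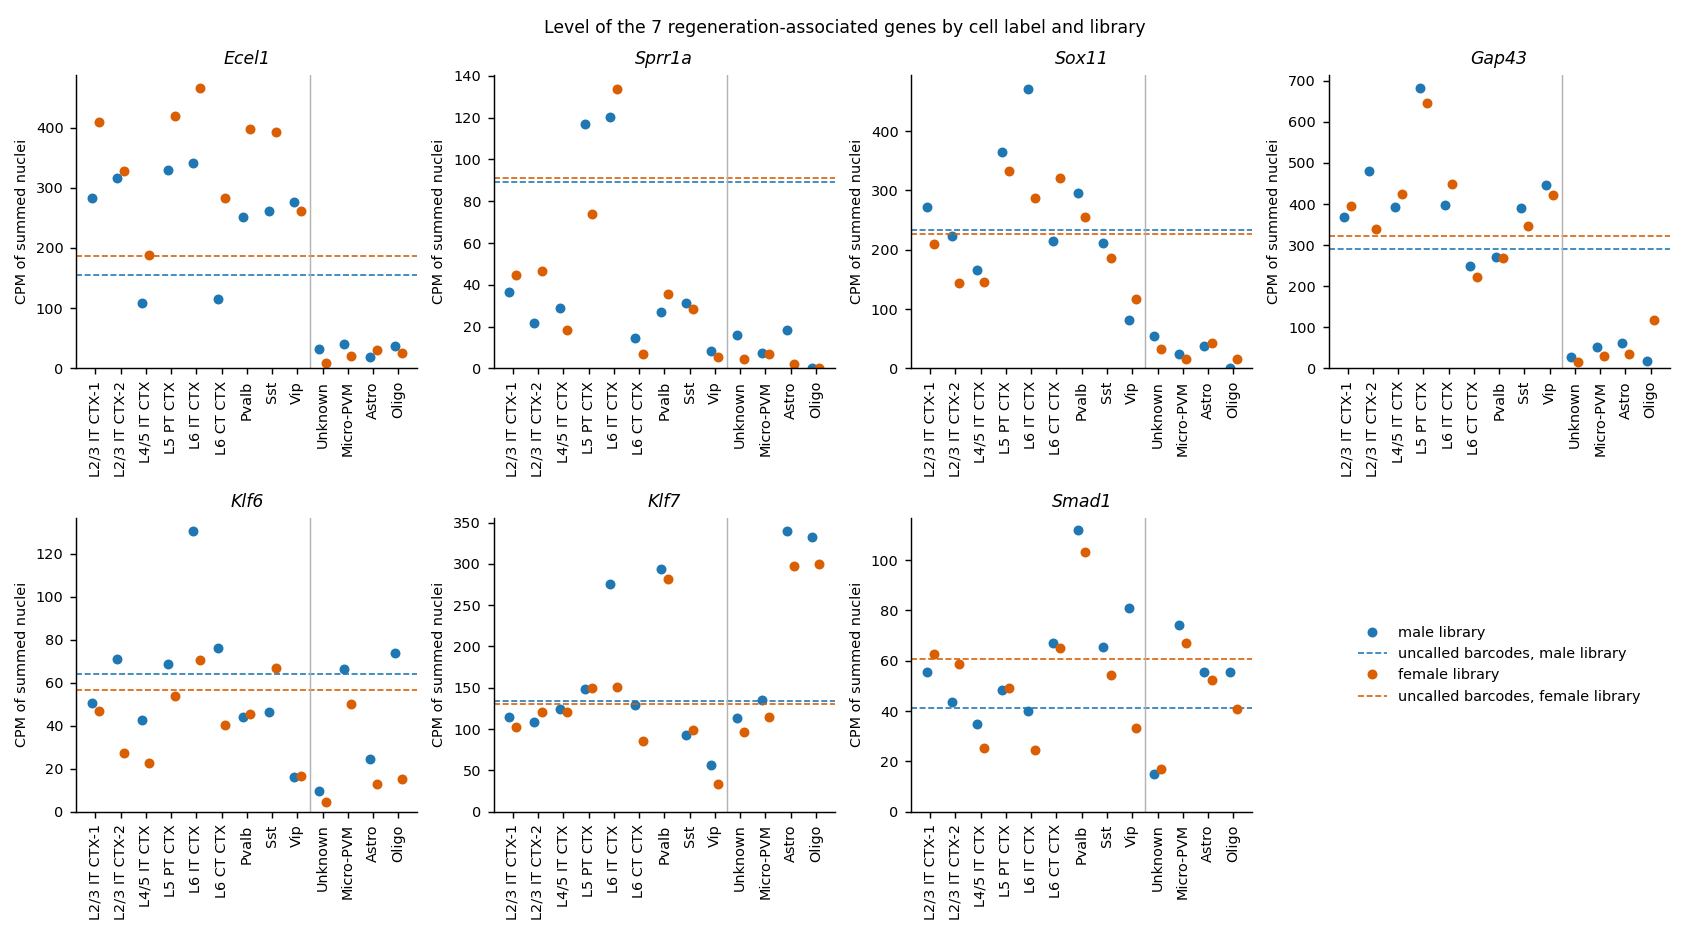
Level of each of the 7 genes (y axis, CPM of the summed nuclei of a label) by cell label (x axis), with 1 point for each library and dashed lines for barcodes not called as nuclei. Sprr1a stands highest in L5 PT and L6 IT, Klf7 and Smad1 in Pvalb among the neurons, and Ecel1 lies above the dashed line in 7 of 9 neuronal labels of the male library.

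Ecel1 (chr1:87147655-87156521, minus strand, GRCm38) had a narrow range across neurons: by the mean of both libraries, its highest label was 2.72 times its lowest, against 2.82 times for Gap43. It stood at 341 and 465 CPM (male and female library) in L6 IT, 329.5 and 418 CPM in L5 PT, 283 and 409.5 CPM in L2/3 IT CTX-1, and 316 and 328 CPM in L2/3 IT CTX-2. Interneurons lay in the same range, with 252 and 397 CPM in Pvalb, 261 and 393 CPM in Sst, and 276 and 261 CPM in Vip. The lowest levels were those of L6 CT, at 115 and 283 CPM, and L4/5 IT, at 108 and 189 CPM. Next to each other in this order, only L2/3 IT CTX-2 and Vip did not overlap between libraries. Against the mean of the other labels, Ecel1 was lower in L4/5 IT by a log2 fold change of -1.05 (SE 0.31, edgeR adjusted p = 0.026), and it was called in no other label.

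Sprr1a (chr3:92483952-92485895, minus strand) was the most uneven member. Its level was 120.5 and 134 CPM in L6 IT and 117 and 74.0 CPM in L5 PT. In L2/3 IT CTX-1 it was 36.7 and 44.9 CPM, in L2/3 IT CTX-2 21.8 and 46.9 CPM, in Pvalb 26.8 and 35.6 CPM, in Sst 31.4 and 28.5 CPM, and in L4/5 IT 29.0 and 18.3 CPM. These 5 middle labels overlapped in their order, and all of them lay below L5 PT and L6 IT in both libraries. L6 CT, at 14.3 and 6.73 CPM, and Vip, at 8.11 and 5.56 CPM, were close to the 7.22 and 6.84 CPM of microglia. Vip rests on 1 UMI of Sprr1a in each library, and L6 CT on 3 in each. L6 IT rests on 24 and 55 UMIs of Sprr1a in 87 and 101 nuclei. Sprr1a stood above the level of uncalled barcodes (89.0 and 91.3 CPM) in both libraries only in L6 IT, and in L5 PT only in the male library. Reads of related genes were rare: the other Sprr genes of the 15 annotated had 2 UMIs in male and 0 in female neurons, against 341 and 549 UMIs of Sprr1a.

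Gap43 (chr16:42248442-42340651, minus strand, holding Mir6540 on the same strand) was highest in L5 PT, at 682 and 645 CPM. Both libraries of L5 PT stood above every other label. A middle group followed, from Vip (446 and 422 CPM) over L6 IT (397 and 448 CPM), L2/3 IT CTX-2 (480.1 and 339.7 CPM), L4/5 IT (393 and 425 CPM) and L2/3 IT CTX-1 (368 and 395 CPM) to Sst (389 and 346 CPM). Neighbours in this group overlapped. Pvalb, at 271 and 268 CPM, and L6 CT, at 248 and 222 CPM, were below all others in both libraries.

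Sox11 (chr12:27334264-27342574, minus strand, a gene of a single exon) stood at 472 and 287 CPM in L6 IT and at 366 and 333 CPM in L5 PT, and the libraries of these labels overlapped. Pvalb followed with 296 and 256 CPM and L6 CT with 215 and 321 CPM. L2/3 IT CTX-1 (273 and 210.4 CPM), Sst (211 and 186 CPM), L2/3 IT CTX-2 (224 and 144 CPM) and L4/5 IT (166 and 145 CPM) overlapped with their neighbours. Vip was lowest in both libraries, at 81.1 and 117 CPM.

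Klf6 (chr13:5861482-5870394, plus strand) was highest in L6 IT, at 131 and 70.6 CPM, from 26 and 29 UMIs. L5 PT held 68.6 and 53.8 CPM, L6 CT 76.4 and 40.4 CPM, Sst 46.5 and 66.8 CPM, L2/3 IT CTX-2 70.9 and 27.3 CPM, and L2/3 IT CTX-1 50.5 and 46.7 CPM. All neighbours from L5 PT down to L2/3 IT CTX-1 overlapped. Pvalb (44.2 and 45.4 CPM), L4/5 IT (42.6 and 22.5 CPM) and Vip (16.2 and 16.7 CPM) came last.

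Klf7 (chr1:64029447-64122282, minus strand, overlapping Mir6899 on its strand and Gm26649 and Gm13748 on the other) was highest in Pvalb, at 293 and 282 CPM. L6 IT came next with 276 and 151 CPM, the widest gap between libraries for this gene. L5 PT, at 148 and 149.8 CPM, differed little between libraries, as did L4/5 IT (124 and 121 CPM) and L2/3 IT CTX-2 (109 and 121 CPM). L2/3 IT CTX-1 (115 and 102 CPM), L6 CT (129 and 85.3 CPM) and Sst (93.0 and 98.8 CPM) overlapped with their neighbours, and Vip was lowest, at 56.8 and 33.3 CPM. Klf7 was not confined to neurons, since Astro held 340.3 and 297 CPM and Oligo 333 and 299.9 CPM.

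Smad1 (chr8:79338395-79399518, minus strand) was highest in Pvalb, at 112 and 103 CPM, and both libraries stood above every other neuronal label. L6 CT (66.9 and 65.1 CPM), Sst (65.3 and 54.2 CPM), L2/3 IT CTX-1 (55.4 and 62.6 CPM), Vip (81.1 and 33.3 CPM), L2/3 IT CTX-2 (43.6 and 58.6 CPM) and L5 PT (48.4 and 49.2 CPM) overlapped in turn. L6 IT (40.2 and 24.4 CPM) and L4/5 IT (34.8 and 25.3 CPM) were lowest.

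The comparison of L5 PT, the layer 5 neurons that project out of the cortex, with the mean of the L2/3 IT labels asked whether deep output neurons and superficial neurons carry the same regeneration genes. Sprr1a, Gap43 and Sox11 were higher in L5 PT and no member was lower, where 6.76% of all genes were called higher and 5.99% lower. The median log2 fold change was 0.45 over the 7 members and -0.02 over all genes tested. Gap43 was higher by 0.79 (SE 0.16, edgeR adjusted p = 0.0013) and Sox11 by 0.78 (SE 0.19, edgeR adjusted p = 0.0060). Sprr1a was higher by 1.31 (SE 0.25, edgeR adjusted p = 0.00095), with each library of L5 PT above all 4 of L2/3 IT. The size of the Sprr1a difference rests on the male library, since it was 1.97 from the male library alone and 0.73 from the female library alone. Klf7 (0.45), Klf6 (0.39), Ecel1 (0.20) and Smad1 (-0.15) did not pass, with adjusted p of 0.10, 0.42, 0.75 and 0.76 in edgeR. Klf7 passed with the library as a replicate block (0.45, edgeR adjusted p = 0.033). None of the 3 calls held once free RNA was subtracted or nuclei with 2 or more microglial marker UMIs were left out, although all 3 kept their direction, and Sprr1a had an adjusted p of 0.12 and 0.28 in edgeR.

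**Figure D2:**
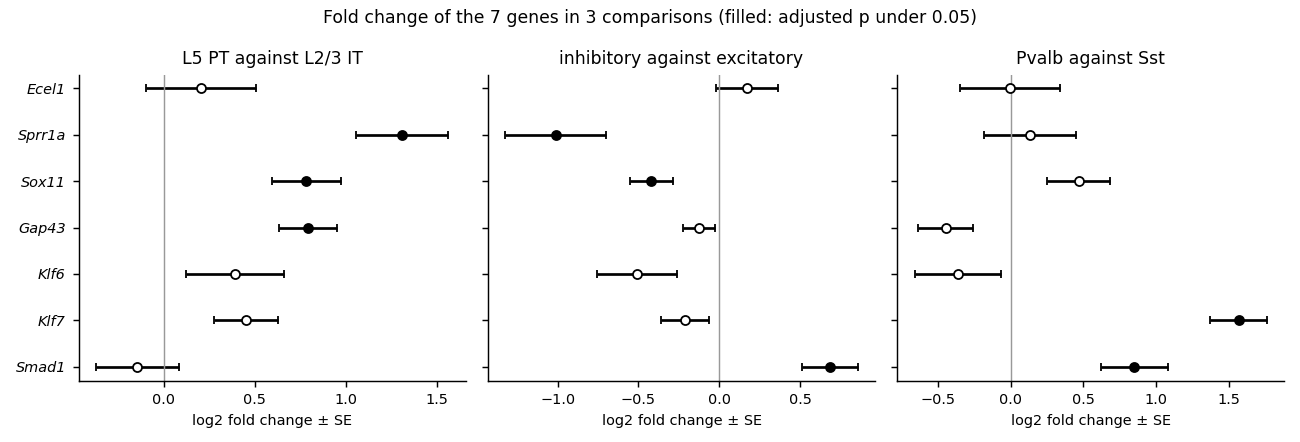
Log2 fold change with its SE (x axis) of the 7 genes (y axis) in 3 comparisons of neuronal labels, with filled points for an adjusted p under 0.05. Filled points are Sprr1a, Sox11 and Gap43 in L5 PT against L2/3 IT, Smad1, Sprr1a and Sox11 in inhibitory against excitatory, and Klf7 and Smad1 in Pvalb against Sst.

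With nuclei sampled down to 2300 UMIs each, so that depth is equal, a Sprr1a UMI was found in 22.4% (17.5-27.9, exact 95% interval) of male and 15.3% (11.3-20.1) of female L5 PT nuclei. In L2/3 IT CTX-1 the shares were 5.75% and 8.44%. Microglia, which should lack the gene, gave 1.55% and 1.24% at the same depth. Nuclei with fewer UMIs than the target were left out, here and wherever nuclei were thinned. This kept 268 of 352 male and 281 of 290 female L5 PT nuclei. Of microglia it kept 194 of 1690 male and 1689 of 2338 female nuclei, so thinned and unthinned shares come from different sets of nuclei. Before thinning, the L5 PT shares were 35.8% and 43.8%, at median depths of 3790 and 10700 UMIs, and those of microglia 1.07% and 2.35%, at 1298.5 and 3012.5 UMIs. Gap43 was detected in 67.9% and 69.8% of thinned L5 PT nuclei, Sox11 in 53.0% and 46.3%, and Ecel1 in 50.7% and 58.7%, against 7.73% and 6.28%, 2.58% and 3.49%, and 4.12% and 3.91% of thinned microglia. The L5 PT shares of all 4 genes lay above those of microglia in both libraries. All intervals cover counting error only.

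Between the mean of the 3 inhibitory and that of the 6 excitatory labels, Smad1 was higher in inhibitory neurons, and Sprr1a and Sox11 were lower. Over all genes 11.9% were called higher and 12.7% lower, so 1 and 2 of 7 members are close to the background of this comparison. Smad1 had 49.7 and 50.8 CPM in the summed excitatory and 85.6 and 79.9 CPM in the summed inhibitory nuclei, with no overlap, and a log2 fold change of 0.68 (SE 0.17, edgeR adjusted p = 0.0050). Sprr1a had 67.7 and 58.5 CPM in excitatory and 27.7 and 31.2 CPM in inhibitory nuclei, a log2 fold change of -1.01 (SE 0.31, edgeR adjusted p = 0.020). Sox11 had 299 and 269 CPM against 236 and 221 CPM, a log2 fold change of -0.42 (SE 0.13, edgeR adjusted p = 0.025). Within their groups, Pvalb held the highest Smad1 level and L5 PT and L6 IT the highest Sprr1a levels. The remaining members had log2 fold changes of 0.17 (Ecel1), -0.12 (Gap43), -0.21 (Klf7) and -0.51 (Klf6), none called in edgeR. The test weighs each label equally. In summed nuclei Klf7 lay the other way in both libraries, at 136 and 128 CPM in excitatory and 172 and 195 CPM in inhibitory nuclei. The Smad1 value without the male library was 0.43, and without the nuclei above the 75th percentile of the share of microglial UMIs Smad1 and Sprr1a were no longer called (edgeR adjusted p = 0.21 and 0.057).

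Among interneurons, Klf7 and Smad1 were higher in Pvalb than in Sst, where 3.99% of all genes were. The levels of both genes in Pvalb lay above both libraries of Sst. The log2 fold change was 1.57 for Klf7 (SE 0.19, edgeR adjusted p = 6.6e-06) and 0.85 for Smad1 (SE 0.23, edgeR adjusted p = 0.021). In nuclei thinned to 2300 UMIs Klf7 was still called (1.31, edgeR adjusted p = 0.0010), and Smad1, at 0.85, was not (edgeR adjusted p = 0.32). A Klf7 UMI was found in 40.6% and 38.8% of thinned Pvalb nuclei, and a Smad1 UMI in 22.6% and 22.4%. Microglia gave 22.7% and 20.5% for Klf7 and 16.0% and 13.9% for Smad1. Neither gene was called in Pvalb against Sst with free RNA subtracted.

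Each of the 9 labels was also set against the mean of the other 8, and 17 of the 63 member tests were called, 9 higher and 8 lower. Of all 8664 genes, 190 (L2/3 IT CTX-2) to 1662 (Pvalb) were called per label in either direction. L6 IT had 4 members higher (background 3.67%): Sprr1a by 2.22, Klf6 by 1.06, Klf7 by 0.72 and Sox11 by 0.71. L5 PT had 3 members higher (background 11.1%): Sprr1a by 1.81, Gap43 by 0.90 and Sox11 by 0.75. So Sprr1a and Sox11 were called higher in both labels, Gap43 in L5 PT and Klf6 and Klf7 in L6 IT. Whether the labels differ from each other in these genes was not tested.

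Pvalb had Klf7 higher by 1.48 and Smad1 by 1.24 (background 11.7%), and Gap43 lower, at -0.49 (background 7.43%). Vip had Sprr1a (-2.48), Klf7 (-1.68) and Sox11 (-1.27) lower (background 4.2%). L6 CT had Sprr1a (-1.98) and Gap43 (-0.86) lower (background 4.42%), and L4/5 IT had Ecel1 (-1.05) and Smad1 (-0.90) lower (background 3.01%). The Sprr1a values of Vip and L6 CT rest on 1 and 3 UMIs in each library, so their size is uncertain. In L2/3 IT CTX-1, L2/3 IT CTX-2 and Sst, 0 members were called by edgeR or DESeq2, and 0 had an unadjusted p under 0.05. With free RNA subtracted 2 of the 63 tests were called, where 39 to 270 of 7697 genes were called per label. With thinned nuclei 10 were called, where 79 to 893 of 4746 genes were. L6 IT had the highest sum of microglial markers of all neuronal labels in the male library (773 CPM) and one of the highest in the female library (1510 CPM). L6 IT also held the most Gad1 and Gad2 of the excitatory labels, 95.4 and 39.0 CPM. The part of either in its 4 calls was not tested.

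**Figure D3:**
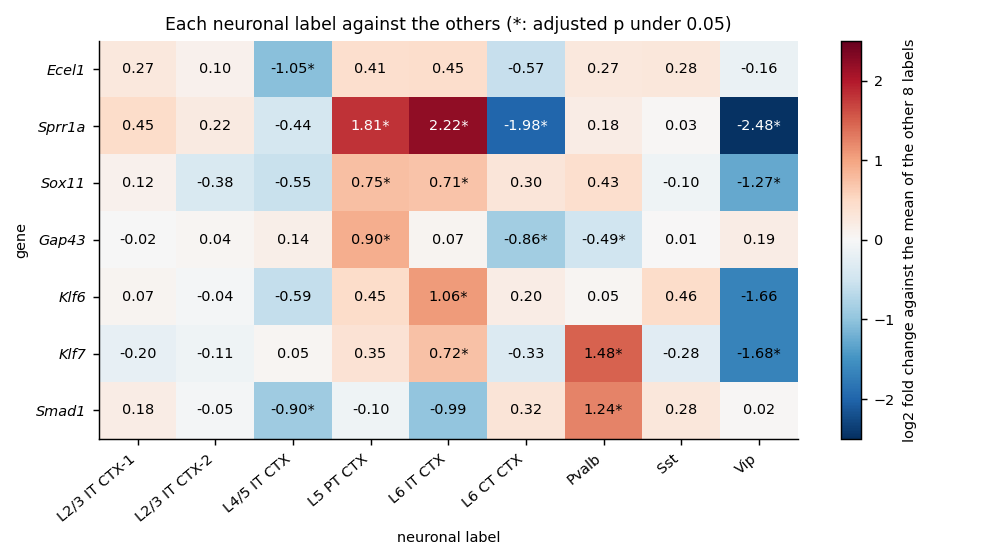
Log2 fold change (colour and printed number) of each of the 7 genes (rows) in each neuronal label (columns) against the mean of the other 8 labels, with an asterisk for an adjusted p under 0.05. The highest values are those of Sprr1a in L6 IT (2.22) and L5 PT (1.81) and of Klf7 in Pvalb (1.48). The lowest is that of Sprr1a in Vip (-2.48), which rests on 1 UMI in each library.

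Other genes of the same pathways differed in both directions too. The counts below stand against 6.76% of all genes called higher and 5.99% called lower in L5 PT, and 11.9% higher and 12.7% lower in inhibitory neurons, and with lists this short several are close to those shares. Among transcription factors of the injury response, 2 of 9 tested were higher in L5 PT than in L2/3 IT, Stat3 (0.83), which acts downstream of cytokine receptors, and Crem (0.71), and 0 were lower, with a list median of 0.05. In inhibitory against excitatory neurons Atf3 (1.61), Stat3 (1.01) and Crem (0.65) were higher and Jun (-0.98) was lower, so Atf3 and Jun differed in opposite directions. Of 14 regeneration effectors, 5 were higher in L5 PT, among them the neuropeptide gene Adcyap1 (2.13), the integrin Itga7 (1.67) and Cd44 (1.44), and 2 were lower, among them Nrn1 (-1.49), with a median of 0.11. In inhibitory neurons Sema6a (2.26) was among 3 effectors called higher, and Nrn1 (-3.88), Cacna2d1 (-2.46), a calcium channel subunit, and Adcyap1 (-1.74) were among 4 called lower, with a median of -0.25.

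Relatives of the 4 transcription factors differed in both directions. Of 7 other Klf genes tested, 0 were called by edgeR between L5 PT and L2/3 IT, 2 had an unadjusted p under 0.05 and DESeq2 called 0 (median -0.05). In inhibitory neurons Klf5 (1.61), Klf12 (1.31) and Klf3 (1.25) were higher and 0 were lower (median 0.42). The SoxC relative Sox4 was lower in L5 PT (-2.60), against the higher Sox11, and Sox4 (-2.62) and Sox12 (-2.28) were both lower in inhibitory neurons. Of 14 genes of the BMP and Smad pathway, the receptor Bmpr1b was higher in L5 PT (1.81) and Smad3 (-1.60) and the receptor Acvr2a (-0.98) were lower (median -0.05). In inhibitory neurons 4 were higher, among them the ligand Bmp6 (1.78) and Smad9 (1.41), and 3 were lower, among them Smad3 (-3.22) and Id2 (-3.08), with a median of 0.04. Of 8 genes known to hold axon growth back, the receptors Ptprs (0.92) and Rtn4r (0.72) were higher and Lingo1 (-1.91) lower in L5 PT, with a median of -0.20. In inhibitory neurons Lingo1 (-2.71) and Rtn4r (-2.49) were lower and 0 were higher. Medians over all genes were -0.02 and -0.05 in these comparisons.

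Outside the annotated neurons, nuclei labelled Unknown held low levels of most members. They carried neuronal RNA, with the 4 pan-neuronal markers (Snap25, Syt1, Rbfox3 and Meg3) summing to 7366 and 6757 CPM, below the 10434-20823 CPM of neuronal labels. Their Slc17a7 level, 222 and 137 CPM, lay above that of every excitatory label. Ecel1 was 33.0 and 8.20 CPM, Gap43 28.7 and 14.5 CPM, Sox11 55.3 and 33.4 CPM, Klf6 9.57 and 4.41 CPM, Sprr1a 16.0 and 4.41 CPM, and Smad1 14.9 and 17.0 CPM. All 6 were lower than the mean of the annotated neuronal labels, where 12.9% of 10599 genes were, with log2 fold changes from -4.01 (Gap43, SE 0.29) and -3.79 (Ecel1, SE 0.42) to -1.49 (Smad1, SE 0.24). Their edgeR adjusted p was at most 0.0036. The median over the 7 members was -2.16 and that over all genes 0.10. Klf7 was the exception, at 114 and 96.5 CPM, with a log2 fold change of -0.01 (SE 0.16, edgeR adjusted p = 1). Atf3, the gene that drives CreER, was 4.25 and 5.05 CPM in these nuclei. The Unknown nuclei pool the deposited clusters 7 and 23. Ecel1, Sprr1a, Gap43 and Sox11 were higher in cluster 23 in both libraries, but not Klf6, Klf7 and Smad1. The levels in cluster 23 rest on few UMIs of each gene, so these differences are uncertain. Sprr1a was 48.0 and 12.4 CPM in cluster 23 and 14.5 and 3.99 CPM in cluster 7. Sox11 was 72.0 and 37.2 CPM in cluster 23 and 54.5 and 33.2 CPM in cluster 7. Ecel1 was 120 and 37.2 CPM in cluster 23 and 28.9 and 6.64 CPM in cluster 7.

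Microglia, also sorted through GFP, had Sox11 lower than the neuronal labels by a log2 fold change of -3.59, Ecel1 by -3.41, Gap43 by -3.36 and Sprr1a by -2.19, where 29.1% of genes were lower. Ecel1 stood at 40.1 and 21.4 CPM, Gap43 at 51.7 and 30.1 CPM and Sox11 at 23.7 and 16.3 CPM, levels far under those of uncalled barcodes. The other 3 transcription factors did not pass: Klf6 was 66.6 and 50.1 CPM (0.24, edgeR adjusted p = 0.36), Klf7 136 and 115 CPM (-0.04, edgeR adjusted p = 0.83) and Smad1 74.2 and 67.1 CPM (0.34, edgeR adjusted p = 0.065). Smad1 was called higher by DESeq2 (adjusted p = 0.037), by edgeR with no filter on low counts (adjusted p = 0.039) and by edgeR with the library as a replicate block (adjusted p = 0.034). Sox11, Klf6, Klf7 and Smad1 thus split in microglia, with Sox11 low as the effectors were, while the levels of the other 3 overlapped those of neurons. Astro and Oligo were not tested and held 0-18.6 CPM of Sprr1a and 18.6-37.0 CPM of Ecel1.

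**Figure D4:**
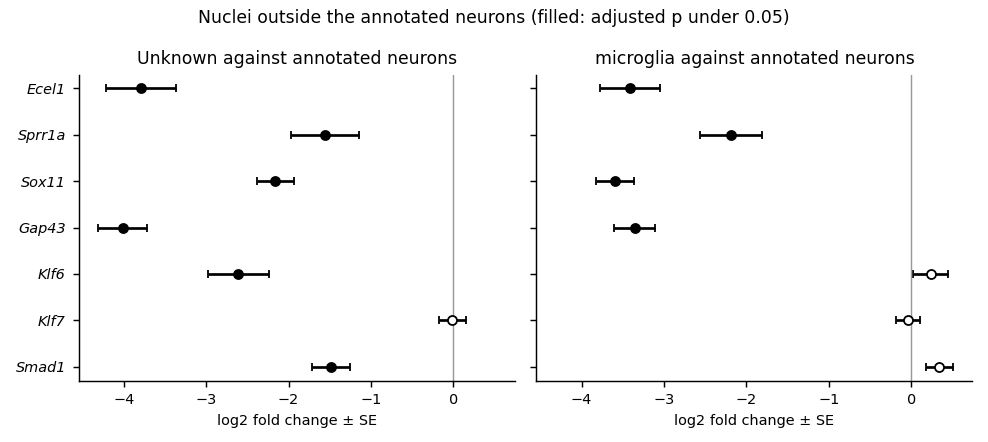
Log2 fold change with its SE (x axis) of the 7 genes (y axis) in nuclei labelled Unknown and in microglia against the mean of the 9 annotated neuronal labels, with filled points for an adjusted p under 0.05. All points but Klf7 (-0.01) are filled for Unknown, and Klf6, Klf7 and Smad1 are not filled for microglia.

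Within single nuclei, the members were found together slightly more often than their shares alone would give. In 959 male and 1038 female neuronal nuclei thinned to 2300 UMIs, the nuclei holding both genes of a pair were counted and divided by the number from the product of the shares within each label and library. Over the 21 member pairs the median ratio was 1.08 (1.05 male, 1.08 female), with a range of 0.899-1.29, and 14 of 21 were above 1 in both libraries. The share of all gene pairs above 1 in both libraries was not counted. The same ratio for each member with all genes had medians between 0.983 and 1.0. The 3 highest ratios were those of Sprr1a with Sox11, Klf6 and Smad1 (1.27), followed by Klf6 and Klf7 (1.24). Sprr1a and Sox11 were found in 110 nuclei against 85.4 (1.22 male, 1.37 female), and Sprr1a and Klf6 in 31 against 24.2 (1.13 male, 1.53 female). The median of Sprr1a with the other members was 1.23, against an upper quartile of 1.07 and a 90th percentile of 1.17 for Sprr1a with 3316 genes. No other member's median passed its own 90th percentile. Those of Sox11 (1.07), Gap43 (1.08), Klf6 (1.11), Klf7 (1.09) and Smad1 (1.10) lay above their upper quartiles. That of Ecel1 (1.05) lay under its upper quartile of 1.06. Ecel1 and Smad1 had the lowest ratio, 0.899, with 108 nuclei against 120.1. These ratios are descriptions, and with another random draw of UMIs the median over pairs was 1.05, 11 pairs were above 1 in both libraries, and the ratio of Sprr1a with Smad1 was 0.860.

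Atf3, Jun and Ddit3 were taken as partners from the injury response. Over the 21 pairs of a member with a partner the median ratio was 1.12, and 15 were above 1 in both libraries, again without a count over all gene pairs. The medians of Atf3 (1.11), Jun (1.10) and Ddit3 (1.14) with the members lay under their 90th percentiles with all genes (1.16, 1.18 and 1.19). Sprr1a and Atf3 stood together in 55 nuclei against 37.8 (1.48 male, 1.44 female), and Klf6 and Atf3 in 63 against 43.7 (1.66 male, 1.26 female). Among L5 PT nuclei with a Sprr1a UMI, an Atf3 UMI was found in 26.7% of 60 male and 25.6% of 43 female nuclei, and among those without in 8.17% of 208 and 16.4% of 238. The exact 95% intervals did not overlap in the male library (16.1-39.7 and 4.83-12.8) and overlapped in the female library (13.5-41.2 and 11.9-21.7). They cover counting error in a single random draw of UMIs, nuclei of a pool are not replicates, and a link was not tested.

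Of the 7 members, a thinned L5 PT nucleus held a mean of 2.46 (male) and 2.36 (female), the highest of the 9 labels in both. L4/5 IT held 1.54 and 1.41. At least 4 members were found in 16.8% (12.5-21.8) and 17.8% (13.5-22.8) of L5 PT nuclei and in 8.43% (5.36-12.5) and 8.44% (5.23-12.7) of L2/3 IT CTX-1 nuclei. In Vip 0 of 27 and 0 of 26 nuclei held 4, which allows shares of up to 12.8% and 13.2%. No neuronal nucleus held all 7 at this depth, and 9.80% and 10.6% held none.

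**Figure D5:**
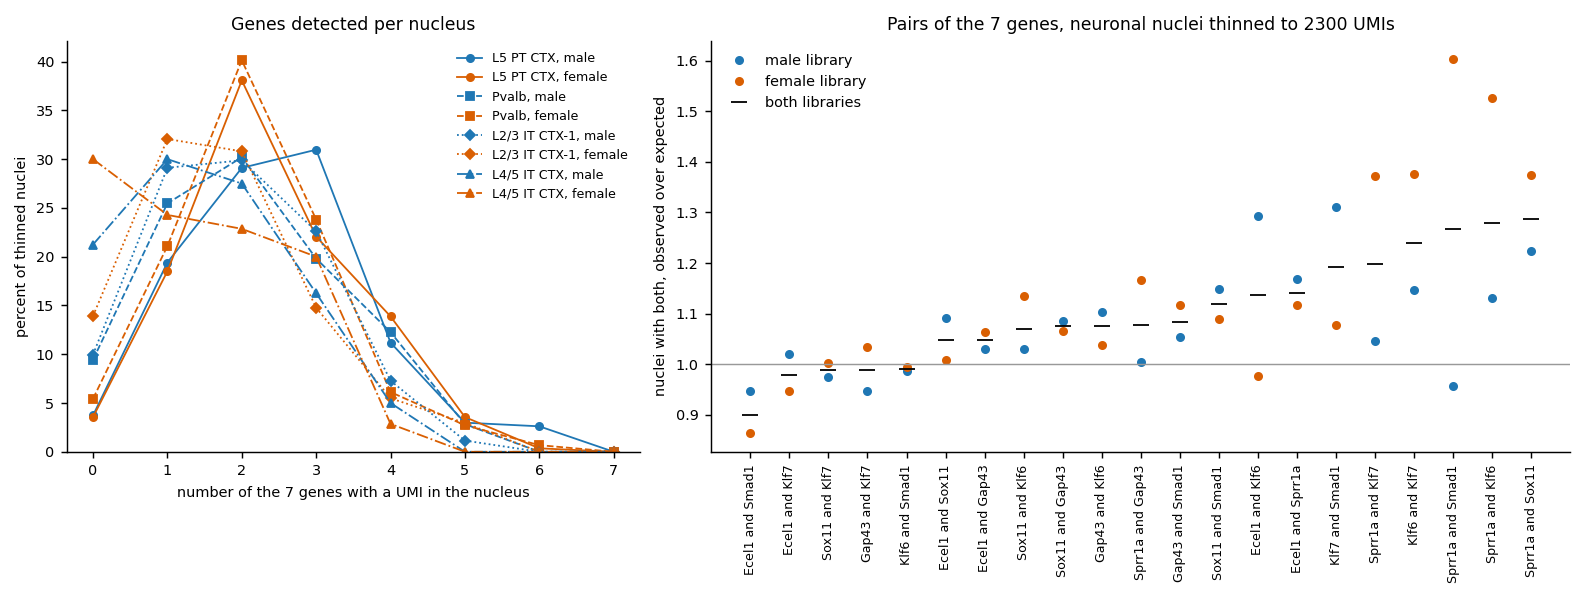
Left, percent of thinned nuclei (y axis) by the number of the 7 genes with a UMI (x axis) in 4 labels of each library. Right, ratio of observed to expected nuclei with both genes (y axis) for the 21 pairs (x axis), with points for libraries and bars for both together, running from 0.899 for Ecel1 and Smad1 to 1.29 for Sprr1a and Sox11.

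Across the 18 neuronal sums (9 labels in 2 libraries), which share libraries, depth and free RNA, the members did not form a single pattern. Pearson's r of log2(CPM + 1) was 0.82 for Sox11 and Klf6, 0.69 for Sox11 and Klf7, 0.65 for Sprr1a and Klf6, 0.01 for Sox11 and Gap43, and -0.50 for Gap43 and Smad1. The 3 genes of all tested with the most similar pattern were Paxbp1 (0.85), Pld3 (0.85) and Safb2 (0.83) for Ecel1, D5Ertd615e (0.88), Col11a2 (0.88) and Itgb3 (0.87) for Sprr1a, and Sec14l1 (0.89), Serpine2 (0.87) and Tmem200a (0.84) for Gap43. For the transcription factors they were Tmeff1 (0.89), Wars (0.87) and Srl (0.86) for Sox11, Efcab11 (0.89), Fndc3b (0.87) and Gnpnat1 (0.86) for Klf6, Azin2 (0.89), Igf2bp2 (0.89) and Psd3 (0.89) for Klf7, and Adarb1 (0.79), Usp22 (0.77) and Snph (0.76) for Smad1. No member was among the 3 nearest genes of another.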

How the data were processed

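Nuclei of 2 libraries were profiled with 10X Genomics 3′ v3 chemistry. Per the methods, the authors obtained UMI counts of each gene and barcode with Cell Ranger on a GRCm38 (mm10) pre-mRNA reference, in which intronic reads count, and deposited these counts without normalization, for called nuclei and for all barcodes. The headers name cellranger 7.0.1 (male), 7.0.0 (female) and Cell Ranger 4 (all barcodes), and the submitters' processing notes Cell Ranger 3.1.0. The authors also deposited labels per nucleus and a score matrix corrected for depth with SCTransform, which was not used here.

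UMIs were summed per label and library and given as CPM. Tests used R 4.3.3, edgeR 4.0.16 (limma 3.58.1) with TMM, filterByExpr and the quasi-likelihood test, with Benjamini-Hochberg adjustment over all genes, in a fit of 18 neuronal sums and a fit of 26 sums with Unknown and glia. The male library held 11007313 and the female library 23202158 UMIs in called nuclei. The alternative test was DESeq2 1.42.0. Shares, thinning (seed 1) and coexpression (pairs with at least 20 expected nuclei for the comparison with all genes) used Python 3.11.15, numpy 2.4.6, scipy 1.17.1 and pandas 2.3.3, and figures matplotlib 3.10.9. Intervals are exact Clopper-Pearson 95% intervals. The fits were tested on simulated data. No doublet caller was run. Positions are from GENCODE vM21 and start regions from RefSeq (GRCm38.p6).

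Members and lists were chosen with earlier results of these data known. The genes named are the 7 members, for each the 3 genes most similar in pattern, up to 4 called genes of each of 6 lists per comparison, and Atf3, Jun and Ddit3. The libraries are separate pools that also differ in sex, and p-values measure the spread between these 2 libraries over labels. Sums of a library come from the same animals, so the library pairs the labels: over 36 pairs of labels the correlation of the library differences ran from 0.0270 to 0.470 (median 0.163), with 28 above 0.1. Alternatives were RLE factors, no filter on low counts, the library as a replicate block, the limits of the methods on nuclei (6000 genes, 5% mitochondrial UMIs), thinning, subtraction of free RNA, leaving out nuclei with microglial UMIs, and leaving out each library, which gives values with no test.

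Some list genes and markers are not reported here.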

Additional observations from a re-analysis of the deposited data

How the results depend on the processing

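Of 35 member calls, all kept their direction in each alternative that could be run for them. RLE factors kept 35, DESeq2 34, no filter on low counts 32 and the library as a replicate block 35 of 35 calls. The limits of the methods on nuclei kept 25 of 25, thinned nuclei 15 of 25, free RNA subtraction 2 of 25, and leaving out nuclei with 2 or more microglial marker UMIs 3 of 21. That last setting leaves 41 thinned female neuronal nuclei and no female L6 CT nucleus, so L6 CT entered with the male library alone, female Vip kept 1 nucleus with 5112 UMIs, and Smad1 could not be tested. Leaving out nuclei above the 75th percentile of the microglial share, added after seeing the data, kept 20 of 25.

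With free RNA subtracted, members called fell to 0 in L5 PT against L2/3 IT, 0 in Pvalb against Sst, 0 in inhibitory against excitatory, 1 in the test of any difference and 2 over the label tests, and all genes called to 99, 50, 601, 554 and 1787. Without nuclei with microglial UMIs the members were 0, 0, 0, 1 and 3, and the genes 93, 106, 378, 708 and 1236. Thinned, the members were 1 in Pvalb against Sst, 1 in inhibitory against excitatory and 10 over the label tests, and the genes 568, 409, 1057, 1731 and 4501. These settings use fewer UMIs or nuclei, and the subtraction used shares of free RNA that were too high for some member levels. The main counts of genes were 1105, 675, 2132 and 3147 in the named comparisons. Genes tested were 8664 in the main fit, 7697 with free RNA subtracted, 4311 without nuclei with microglial UMIs and 4746 thinned. Counts over the label tests add up the tests of all 9 labels. The paired fit (replicate block) called 1023 genes in Pvalb against Sst, and 1645 in L5 PT against L2/3 IT. Outside the label tests it added the calls of Ecel1 in the test of any difference, Klf7 in L5 PT against L2/3 IT and Smad1 in microglia. It changed no other member call there. In the label tests it kept every main call, and calls that it may have added are not listed here. Without the nuclei above that percentile, 1 member was called in inhibitory against excitatory.

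Values that were not called changed sign in a few settings: Smad1 in L5 PT against L2/3 IT with free RNA subtracted (0.33), Ecel1 in Pvalb against Sst with RLE (0.0028), no filter (0.0037) and thinning (0.011), Sprr1a in the same comparison without nuclei with microglial UMIs (-0.49) and thinned (-0.48), and Klf7 in microglia with no filter (0.11). The cause was not tested.

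Without nuclei with microglial UMIs, the level over neurons moved to 64.4 CPM for Sprr1a, 420.2 for Gap43, 156 for Klf7 and 50.5 for Smad1. Thinned to 2300 and to 1500 UMIs, the share of neuronal nuclei with a UMI was 49.3% and 39.7% for Ecel1, 10.00% and 7.62% for Sprr1a, 39.3% and 30.5% for Sox11, 53.4% and 40.7% for Gap43, 10.9% and 7.39% for Klf6, 24.0% and 15.9% for Klf7, and 12.02% and 7.46% for Smad1, since fewer UMIs find a gene less often. The median coexpression ratio over member pairs was 1.05 with another seed, 1.10 without nuclei with microglial UMIs, and 1.05 to 1.08 with 1 library left out. Depth limits single nuclei, since at 2300 UMIs a nucleus without a UMI of a member may still express it, and 2 libraries allow no test within either sex.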
